A study of Mus musculus with 3 samples.

Results

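The CD300 receptor family was measured here in circulating leukocytes of untreated mice, through 6 genes, Cd300a, Cd300lf, Cd300lb, Cd300ld, Cd300e and Cd300c. They were chosen by symbol, as the rows of the count matrices that carry these 6 names, out of 19059 genes in all. Cd300lg, Cd300c2 and Cd300ld2, the other 3 genes of the Cd300 naming series with a row in the matrices, were described beside them. The samples are 3 libraries of peripheral blood leukocytes from mice of 8, 9 and 10 weeks, labelled with Male as the genotype and with no other allele, called replicates 1, 2 and 3. All belong to 1 untreated group, and the labels give no strain and do not state that each library is a separate animal. With the library as a block, p-values measure how differences between classes vary from library to library, pooled over the classes fitted together. This variation may be technical. Erythrocytes were lysed, and the cells were sorted after nuclear staining, fixed and counted with a fixed-RNA kit, in which pairs of probes that bind a transcript are counted as unique molecular identifiers (UMIs). The comparisons below are between cell types within the same libraries and ask which circulating cells carry each receptor.

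The CD300 proteins are surface receptors with a single immunoglobulin-like domain, many of which bind lipids exposed on dying or activated cells, such as phosphatidylserine and ceramide. The inhibitory members, Cd300a and Cd300lf, carry tyrosine motifs in the cytoplasmic tail that recruit the phosphatases encoded by Ptpn6 and Ptpn11. The activating members, among them Cd300lb, Cd300ld and Cd300e, have short tails and signal through adaptor chains such as those encoded by Tyrobp and Fcer1g. The family is known as a paired receptor system of myeloid cells, in which activating and inhibitory receptors with similar outer domains stand on the same cells.

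The genes lie together on chromosome 11. In the GENCODE annotation of GRCm38, Cd300a occupied 114890041 to 114904654 on the plus strand, and Cd300lb, Cd300c, Cd300ld, Cd300c2, Cd300ld2, Cd300e and Cd300lf followed on the minus strand, up to base 115133992 at the start of Cd300lf. Cd300lg lay apart from this cluster, at 102041509 to 102055620 on the plus strand. The start regions of 4 members with unlike cell patterns in these data are shown, from 250 bases before the gene start to 20 bases into the gene, on the coding strand, from RefSeq (GRCm38.p6). Cd300e was found in Ly6c-low monocytes, Cd300ld in Ly6c-low monocytes and neutrophils, Cd300lf mostly in neutrophils, and Cd300lb in neutrophils and at a lower level in all monocytes. Capitals mark each AGGAAGT, the core of the sites bound by the myeloid factor PU.1. Their coordinates are chr11:115062020-115062289, chr11:114989867-114990136, chr11:115133973-115134242 and chr11:114934352-114934621, all on the minus strand.
Cd300e: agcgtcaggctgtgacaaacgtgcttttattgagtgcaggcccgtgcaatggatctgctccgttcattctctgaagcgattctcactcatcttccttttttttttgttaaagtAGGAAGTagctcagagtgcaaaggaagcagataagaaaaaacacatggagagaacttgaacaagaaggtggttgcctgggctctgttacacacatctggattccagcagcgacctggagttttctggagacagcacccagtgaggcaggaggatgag
Cd300ld: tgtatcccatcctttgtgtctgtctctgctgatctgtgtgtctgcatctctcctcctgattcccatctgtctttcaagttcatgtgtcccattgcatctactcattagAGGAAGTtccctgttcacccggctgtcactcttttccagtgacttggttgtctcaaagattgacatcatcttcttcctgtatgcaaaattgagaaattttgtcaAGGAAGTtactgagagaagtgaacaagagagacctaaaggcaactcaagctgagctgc
Cd300lf: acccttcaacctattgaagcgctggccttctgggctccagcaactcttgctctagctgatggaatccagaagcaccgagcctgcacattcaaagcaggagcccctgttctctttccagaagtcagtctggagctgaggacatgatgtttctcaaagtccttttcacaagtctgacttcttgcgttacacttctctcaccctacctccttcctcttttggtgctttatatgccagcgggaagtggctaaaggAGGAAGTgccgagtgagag
Cd300lb: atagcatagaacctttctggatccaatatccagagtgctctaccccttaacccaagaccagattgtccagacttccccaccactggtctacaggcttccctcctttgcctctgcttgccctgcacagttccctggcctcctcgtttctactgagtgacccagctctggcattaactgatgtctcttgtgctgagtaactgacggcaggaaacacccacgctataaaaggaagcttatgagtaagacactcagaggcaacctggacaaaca
Both strands were searched, and 8.43% of 32851 start regions of the same length in the RefSeq table held AGGAAGT. Cd300ld had 2 matches, which begin 142 and 38 bases before the RefSeq start, Cd300e had 1, which begins 137 bases before its own, and Cd300lf had 1 just inside the gene. GENCODE places some starts further upstream. With its start of Cd300e at 115062177 the match lies inside the gene, and with that of Cd300ld at 114989922 the nearer match spans the start. The GENCODE start of Cd300c, at 114969157, lies outside the window searched. The letters were not in these windows of Cd300lb, Cd300a and Cd300c. The C/EBP-type letters TTGCNNAA, present in 10.1% of all regions, matched among the 6 members once, in Cd300a, 214 bases before the start. AAAGGTCA, the element bound by the NR4A receptors and present in 1.43% of all regions, had no match in the 6 members. These matches describe the sequence and show no binding.

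Some of these genes share stretches of transcript, which bears on how far the counts can be told apart. Of the 25-base words in the annotated transcripts, 6.603% in Cd300ld and 8.59% in Cd300lf recur in another Cd300 gene, and the longest run that these 2 share is 134 bases. For Cd300a the share was 3.27% and for Cd300c 7.41%, both with Cd300c2 as the nearest relative. Cd300e, Cd300lb and Cd300lg shared no such word. Cd300ld2 shared 52.1% of its words, most of them with Cd300ld3, Cd300ld4 and Cd300ld5, which were not analysed here. The probe sequences were not used here, so whether a probe falls in a shared stretch was not tested.

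The libraries held 45718031, 19591648 and 23443660 UMIs in 11105, 5736 and 7029 barcodes. After removal of barcodes with fewer than 200 genes and of called doublets, 10340, 4944 and 6474 cells were analysed. The libraries shared between 48 and 101 cell barcodes per pair. Each cell was called for the marker list of which it showed the most genes, with at least 3 markers and a lead of 2 over other lists (1 for dendritic-like cells against the nearest lists). No Cd300 gene was among the 97 markers, and all names end in "like" because they rest on transcripts alone. This gave 547 Ly6c-high-like, 90 intermediate and 637 Ly6c-low-like monocytes, 2654 neutrophil-like, 51 dendritic-like, 75 basophil-like, 9776 B-like, 2470 CD4 T-like, 3072 CD8 T-like and 891 NK-like cells, and 369 cells stayed uncalled. Replicate 1 held 313 of the Ly6c-high-like, 461 of the Ly6c-low-like and 1723 of the neutrophil-like cells, so counts pooled over libraries weigh it most there. B-like cells made up 28.4%, 55.1% and 63.6% of the libraries. Ptprc, the pan-leukocyte marker, had a UMI in 90.5% to 96.5% of cells per library, and 316 platelet-like and 49 erythroid-like barcodes were present. The median depth was 8778 UMIs for Ly6c-high-like monocytes, 4688 for the Ly6c-low-like type and 2772 for neutrophil-like cells, so shares of cells with a UMI are also given after each cell was thinned to 2000 UMIs. Thinning left out 13 Ly6c-high-like, 31 Ly6c-low-like, 250 neutrophil-like, 1 dendritic-like, 7 basophil-like and 111 CD4 T-like cells that were shallower. Levels are in CPM, a gene's UMIs divided by all UMIs of the class and library, as mean ± SD with n = 3. Of dendritic-like cells 60.8% had just 3 markers or a lead of 2 or less, against 3.05% of neutrophil-like cells. A lead of 1 over the nearest lists was enough for dendritic-like cells, so some of the 60.8% may lie past the limit of their call. Of monocytes at most 4.39% per class had so few markers or so small a lead. At the limit of the split into types stood 57 of 90 intermediate, 64 of 547 Ly6c-high-like and 26 of 637 Ly6c-low-like cells.

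Among the inhibitory receptors, Cd300a was the member found across all circulating phagocytes. Its level was 1023 ± 128 CPM in Ly6c-high-like, 1561 ± 232 in intermediate and 1571 ± 126 in Ly6c-low-like monocytes, and 1132 ± 141 in neutrophil-like cells. The libraries of Ly6c-low-like monocytes (1561, 1450 and 1701 CPM) all stood above those of Ly6c-high-like monocytes (1123, 879 and 1067 CPM). Neutrophil-like cells, at 1230, 970 and 1196 CPM, overlapped with the Ly6c-high-like range on this scale, and the intermediate monocytes overlapped with the Ly6c-low-like ones. Dendritic-like cells followed with 841, 498 and 769 CPM, below every monocyte library, and basophil-like cells with 212, 273 and 197 CPM. In lymphocytes the gene stayed at or under 7.29 CPM in every library. A Cd300a UMI was seen in 98.8% of Ly6c-high-like, 98.9% of Ly6c-low-like and 90.5% of neutrophil-like cells, and in 86.2%, 94.0% and 84.9% of them at 2000 UMIs per cell. Of CD4 T-like cells, which serve as the background for free RNA, 0.83% had a Cd300a UMI, at a median depth of 3511 UMIs.

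Cd300lf, the other inhibitory member, followed a different pattern and stood at its highest level in neutrophil-like cells. There it was at 733, 679 and 788 CPM, a mean of 733 ± 54.9, with a UMI in 81.5% ± 3.00 of cells. Ly6c-low-like monocytes had 43.4, 59.6 and 32.5 CPM and Ly6c-high-like monocytes 31.2, 48.2 and 18.2 CPM. The monocyte classes overlapped with each other. Dendritic-like cells, at 23.6, 31.1 and 25.2 CPM (26.6 ± 3.98), overlapped with Ly6c-high-like and intermediate monocytes but lay below every Ly6c-low-like library. All these classes lay far below the neutrophils. Of all Cd300lf UMIs in the analysed cells, 86.8% were in neutrophil-like cells. After thinning, the share of cells with a UMI was 73.4% in neutrophil-like cells against 6.02% in Ly6c-high-like and 7.85% in Ly6c-low-like monocytes.

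**Figure D1:**
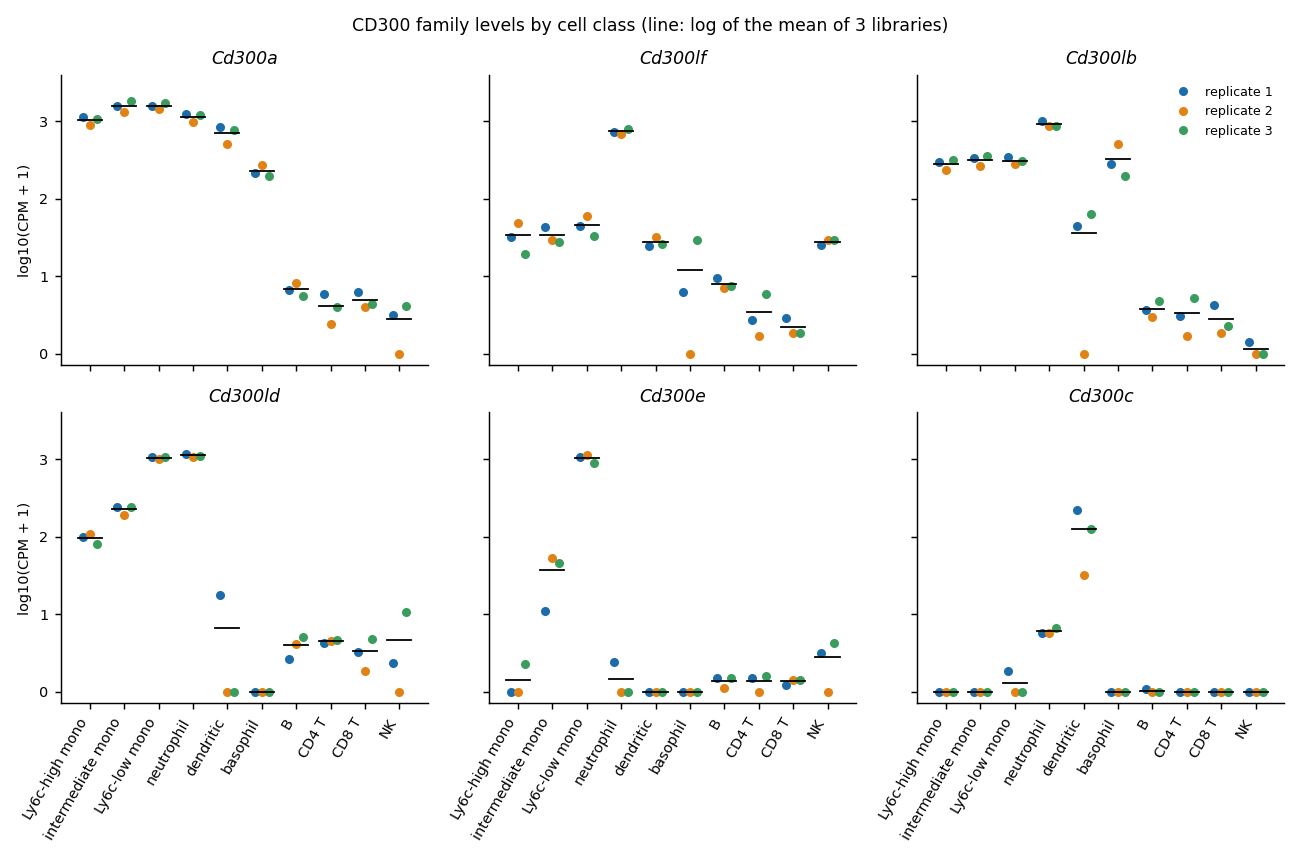
Level of each CD300 member in 10 cell classes, as log10(CPM + 1), with 1 point per library and a line at the log of the mean of the 3. Cd300a is high in all monocytes and neutrophils, Cd300lf in neutrophils, Cd300lb in neutrophils with a lower level in monocytes and basophils, Cd300ld in Ly6c-low monocytes and neutrophils, Cd300e in Ly6c-low monocytes and Cd300c in dendritic cells.

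The activating receptor Cd300lb, which pairs with the Tyrobp chain, was highest in neutrophil-like cells, with 1013, 862 and 873 CPM. Monocytes had about the same level whichever type they were, with 280 ± 43.6 CPM in Ly6c-high-like, 318 ± 51.9 in intermediate and 308 ± 34.8 in Ly6c-low-like cells. These 3 classes overlapped, and none of their libraries reached the lowest neutrophil library. Basophil-like cells had 279, 508 and 197 CPM from 54, 8 and 13 cells, a mean of 328 ± 161 that overlapped with all monocyte classes. In these basophil-like cells Cd300ld had no UMI in 75 cells, which allows a share of up to 4.00%, and Cd300lf had 2. Their summed monocyte markers were at 67.2 to 117 CPM against 5034 to 5179 in Ly6c-high-like monocytes, and Clec4a3, Clec4a1 and Klf4 were among the markers with no UMI. The 8 neutrophil markers summed to 900.1 to 1349 CPM in basophil-like cells, above the 823 to 886 CPM of Ly6c-high-like monocytes. Even so, 5 of the 8 (Csf3r, Il1r2, Ly6g, Mmp8 and Clec4d) had no UMI. The cell calls used both marker lists, so these sums follow in part from the calls. The part of monocyte or neutrophil RNA in the Cd300lb level was not tested. Dendritic-like cells had 43.7, 0 and 63.0 CPM.

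Cd300ld, an activating receptor that signals through the Fcer1g chain, split the 2 monocyte types. It stood at 1047, 993 and 1071 CPM in Ly6c-low-like and at 98.95, 106 and 79.5 CPM in Ly6c-high-like monocytes, with intermediate cells between them at 239, 189 and 242 CPM. Neutrophil-like cells had 1167, 1071 and 1096 CPM, a mean of 1111 ± 49.9, and the lowest of its libraries met the highest Ly6c-low-like one at 1071 CPM, beside a Ly6c-low-like mean of 1037 ± 40.1. The 8 neutrophil markers summed to 363 to 405 CPM in Ly6c-low-like monocytes, where Ly6g and Il1r2 had no UMI. In neutrophil-like cells they summed to 26319 to 27928 CPM. This contrast follows in part from the cell calls, which used the same markers. The part of neutrophil RNA in the Cd300ld level of Ly6c-low-like monocytes was not tested. A UMI was found in 95.01% of Ly6c-low-like, 90.1% of neutrophil-like and 41.2% of Ly6c-high-like cells, and in 83.7%, 84.5% and 16.0% at 2000 UMIs per cell. Dendritic-like cells held 5 Cd300ld UMIs in all, every one in replicate 1.

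Cd300e, an activating receptor known from monocytes, was found almost wholly in the Ly6c-low-like type. Its levels there were 1076, 1124 and 877 CPM, a mean of 1025 ± 131, and 89.8% ± 5.58 of the cells had a UMI. The 547 Ly6c-high-like monocytes held 1 UMI in all, a share of 0.183% of cells with an exact 95% binomial interval of 0.00463% to 1.01%, and the 2654 neutrophil-like cells held 7. Intermediate monocytes had 10.1, 51.9 and 44.7 CPM, from 20 UMIs in 6 of 90 cells, with up to 7 in 1 cell. Of all Cd300e UMIs, 95.7% were in Ly6c-low-like monocytes, although that class made up 637 of 21758 cells. Of CD4 T-like cells, 4 of 2470 had a Cd300e UMI, a share of 0.162% that lies within the interval of the Ly6c-high-like monocytes. Intervals and limits here cover counting error only.

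Cd300c, an activating member close in sequence to Cd300c2, was the rarest, with 139 UMIs in all analysed cells, of which 77 were in the 51 dendritic-like cells. The dendritic-like libraries had 219, 31.1 and 126 CPM from 33, 8 and 10 cells, a wide spread with a mean of 125 ± 93.8. A UMI was present in 31 of the 51 cells. The 47 conventional dendritic-like cells held 52 UMIs in 28 cells, and the 4 plasmacytoid ones held 25 UMIs in 3 cells. No Cd300c UMI was found in 547 Ly6c-high-like monocytes, which allows a share of up to 0.548%, or in 2470 CD4 T-like cells, which allows up to 0.121%. Neutrophil-like cells had 36 UMIs in 35 cells, or 4.66, 4.70 and 5.58 CPM, a low level that was alike in all 3 libraries. Cd300c2, with which Cd300c shares a run of 42 bases, was at 245 ± 29.6 CPM in those neutrophils, and its part in the Cd300c count was not tested.

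**Figure D2:**
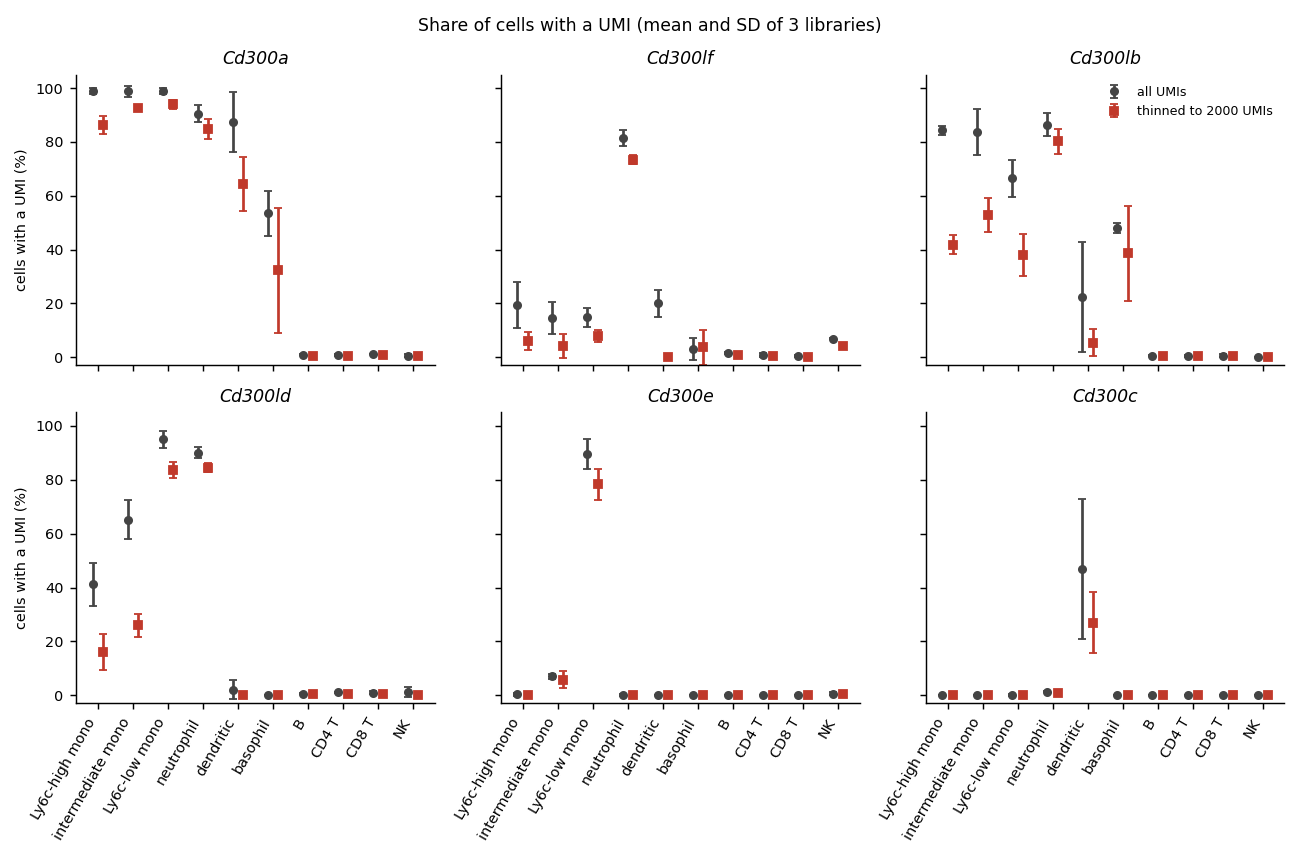
Share of cells with at least 1 UMI of each member, in percent, by cell class, as the mean and SD of 3 libraries, with all UMIs and after thinning each cell to 2000 UMIs. Thinning lowers the share of Cd300lb from 84.2% to 41.9% in Ly6c-high monocytes but from 86.4% to 80.2% in neutrophils, while Cd300e stays at 78.3% in Ly6c-low monocytes.

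Cd300ld and Cd300e were at their highest levels at the Ly6c-low end of the monocyte split. Monocytes were placed by the number of Ly6c-high markers minus the number of Ly6c-low markers they showed, in 5 groups of 236, 311, 90, 132 and 505 cells. From the most Ly6c-high to the most Ly6c-low group, Cd300ld was at 88.8, 102, 223, 679 and 1132 CPM, and Cd300e at 0, 0.68, 35.5, 558 and 1151 CPM. In both genes the last group was the highest and the one before it the next highest in each library. Cd300a stood at 886, 1121, 1561, 1745 and 1525 CPM, with its highest mean in the group before the last, where replicate 1 did not differ from its middle group by more than 1 CPM. Cd300lb lay between 265 and 318 CPM in all 5 groups, within the spread of the libraries. Cd300lf lay between 31.8 and 46.4 CPM, and its libraries overlapped between neighbouring groups. Its libraries in the most Ly6c-low group (44.3, 54.4 and 40.4 CPM) all stood above those in the most Ly6c-high group (33.4, 36.5 and 25.4 CPM). The groups come from the same marker counts that define the classes and were given no test of their own.

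**Figure D3:**
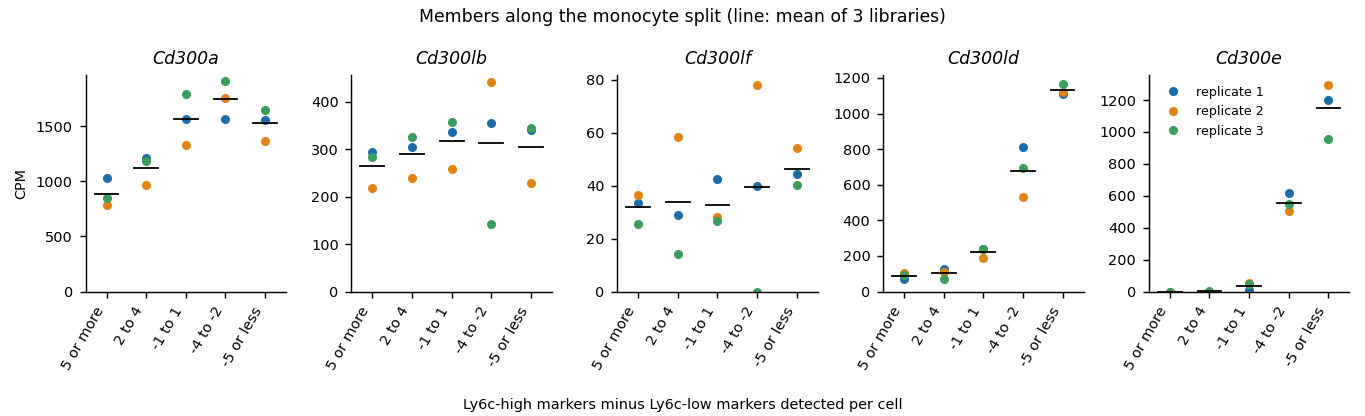
Level of 5 members in CPM in monocytes ordered from the most Ly6c-high (left) to the most Ly6c-low (right) by marker counts, with 1 point per library and a line at the mean. Cd300ld and Cd300e climb in the 2 groups on the right, and Cd300a has its highest mean, 1745 CPM, in the group before the last. Cd300lb stays within the spread of the libraries, and Cd300lf is higher in the last group than in the first.

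Between the monocyte types, 3 of the 5 tested members were higher in Ly6c-low-like cells and none was lower, while 15.7% of the 10346 genes tested were called higher, 18.8% lower and 34.4% in either direction. Counts were summed per class and library and tested with edgeR's quasi-likelihood test with Benjamini-Hochberg adjustment over all genes, with the library as a block and TMM scaling. Cd300ld was higher by 3.43 on the log2 scale (SE 0.12, edgeR adjusted p = 2.52e-30), and Cd300a by 0.63 (SE 0.09, edgeR adjusted p = 8.47e-08), each in 3 of 3 libraries. Cd300e had 3305 UMIs against 1, a pooled ratio of 4979 with an exact 95% interval of 893 to 196714, and an edgeR adjusted p of 2.34e-34. Cd300lb (log2 fold 0.16, SE 0.11, edgeR adjusted p = 0.261) and Cd300lf (log2 fold 0.38, SE 0.23, edgeR adjusted p = 0.201) did not pass, and their libraries overlapped. Cd300c, with no UMI in Ly6c-high-like cells and 2 in Ly6c-low-like cells, was below the count filter of this fit. With called doublets kept, the fold of Cd300a was again 0.63, but its edgeR adjusted p was 0.0628.

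Against neutrophil-like cells, 4 members were well counted on both sides and all were called lower in Ly6c-high-like monocytes. Cd300e was also called lower, on 1 against 7 UMIs, a call lost in most alternatives, so 5 of 5 tested members were lower, with 36.1% of all genes called lower, 37.4% higher and 73.5% in either direction. The log2 folds were -5.41 for Cd300lf (SE 0.14), -4.47 for Cd300ld (SE 0.12), -2.67 for Cd300lb (SE 0.10) and -1.09 for Cd300a (SE 0.09), and the largest edgeR adjusted p of these 4 was 3.49e-17. This comparison depends on the scaling, because the TMM factors were 0.54 to 0.58 in neutrophil-like sums and 1.07 to 1.08 in Ly6c-high-like sums. With plain library totals the median log2 fold of all genes moved from 0.01 to 0.94, and the calls from 3869 higher and 3732 lower to 6439 higher and 1709 lower. On that scale Cd300lf, Cd300ld and Cd300lb stayed lower, at -4.45, -3.52 and -1.73, and Cd300a was no longer called (log2 fold -0.15, edgeR adjusted p = 0.123).

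Ly6c-low-like monocytes and neutrophil-like cells shared Cd300a and Cd300ld. The order of Cd300a turned with the scaling, while Cd300ld stayed lower in the monocytes and lost its call with plain totals. With TMM, Cd300lf (log2 fold -5.02, SE 0.15), Cd300lb (-2.50, SE 0.10), Cd300ld (-1.03, SE 0.10) and Cd300a (-0.46, SE 0.09) were lower in Ly6c-low-like monocytes, and Cd300e was higher, with 3305 UMIs against 7. That is 4 of 5 tested members lower and 1 higher, with 34.7% of all genes called lower, 35.7% higher and 70.4% in either direction. With plain totals, where the median of all genes stood at 0.91 and the calls at 6208 higher and 1602 lower, Cd300a was higher instead (log2 fold 0.47, edgeR adjusted p = 5.59e-06) and Cd300ld was not called (-0.10, edgeR adjusted p = 0.334). Cd300lf and Cd300lb stayed lower, at -4.08 and -1.57. With DESeq2's size factors the median of all genes was 0.36. The Cd300a call of the TMM fit was also lost with doublets kept (edgeR adjusted p = 0.104) and with DESeq2 (log2 fold -0.08, DESeq2 adjusted p = 0.776).

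**Figure D4:**
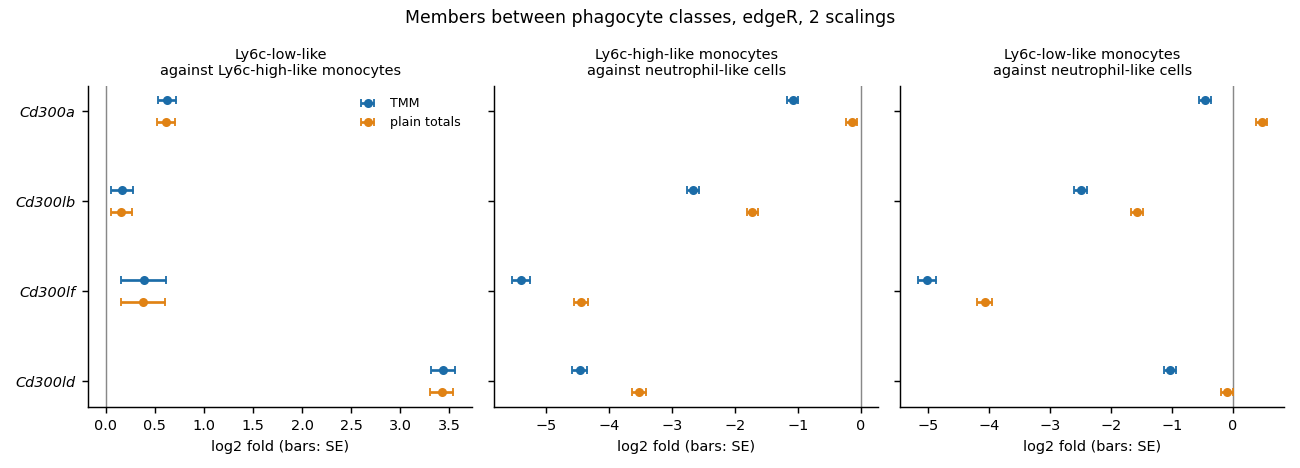
Log2 fold of 4 members in 3 comparisons, from edgeR with TMM scaling and with plain library totals, with SE as bars; Cd300e is left out because it has 1 and 7 UMIs in Ly6c-high monocytes and neutrophils. Between the monocyte types the scalings lie on top of each other. In the comparisons with neutrophils, plain totals move all 4 genes to the right, which puts Cd300a above 0 in Ly6c-low monocytes.

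Dendritic-like cells differed from Ly6c-high-like monocytes in 5 of 6 tested members. This fit used cluster-based classes, because replicate 2 held 8 dendritic-like cells called by markers, under the minimum of 10, while the cluster holds 113 cells. Of the members, 1 was higher and 4 were lower, with 15.9% of the 10566 genes called higher, 17.2% lower and 33.1% in either direction. Cd300c had 100 UMIs against 0, at least 180-fold higher when 3 counts are assigned to the monocytes as a group (edgeR adjusted p = 1.66e-14), with TMM-scaled levels of 108, 18.8 and 73.9 CPM. With DESeq2 its adjusted p was 0.24, and the number of members called higher was 0. Cd300ld (log2 fold -2.71, SE 0.30), Cd300lb (-2.57, SE 0.20) and Cd300a (-0.89, SE 0.10) were lower in 3 of 3 libraries, with 5.61e-10 as the highest edgeR adjusted p. Cd300lf was called lower (-1.11, SE 0.38, edgeR adjusted p = 0.0219), but its libraries overlapped and the call was lost with plain totals (edgeR adjusted p = 0.106) and without replicate 1 (0.334) or replicate 2 (0.137). Cd300e, with 3 against 52 UMIs, was not called (edgeR adjusted p = 0.0826). The clusters are mixed: of their cells called by markers, 69.9% were dendritic-like in the one and 82.5% Ly6c-high-like in the other, and the Ly6c-high-like monocytes called by markers held 1 Cd300e UMI.

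In B-like, CD4 T-like and CD8 T-like cells the members were at a few CPM. B-like and CD4 T-like cells had means of 0.37 CPM each for Cd300e and 2.96 against 3.47 for Cd300ld. At least 1 of the 6 members had a UMI in 3.52% of B-like, 3.27% of CD4 T-like and 3.37% of CD8 T-like cells, and in 2.07%, 1.72% and 2.08% after thinning. Between B-like and CD4 T-like cells, 2 of 5 tested members were called higher and 0 lower, with 27.3% of all genes higher, 28.3% lower and 55.5% in either direction. Cd300lf was at 8.41, 5.98 and 6.50 CPM in B-like and at 1.69, 0.71 and 4.85 CPM in CD4 T-like cells (log2 fold 1.81, SE 0.35, edgeR adjusted p = 2.44e-05). That call was lost with doublets kept (log2 fold 0.58, edgeR adjusted p = 0.283) and without replicate 1 (1.20, edgeR adjusted p = 0.060). Cd300a passed narrowly (log2 fold 0.66, edgeR adjusted p = 0.0488) at 5.84 ± 1.38 against 3.12 ± 1.75 CPM, with overlapping libraries, and with doublets kept its fold was -0.28. The summed neutrophil markers, a sign of free or stray RNA, were at 37.6 to 81.1 CPM in B-like and 46.4 to 120 CPM in CD4 T-like cells. The cell calls used these markers, which limits the sums, and the part of such RNA in these small differences was not tested.

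NK-like cells had more Cd300lf than any other lymphocyte class, a feature picked out after its values were seen and given no test. The level was 24.1, 28.1 and 28.7 CPM, above every B-like, CD4 T-like and CD8 T-like library, and 6.93% ± 0.09 of NK-like cells had a UMI against 0.81% ± 0.70 of CD4 T-like cells at median depths of 3385 and 3511 UMIs. At 2000 UMIs per cell the shares were 4.33% and 0.40%. Cd300a, Cd300lb, Cd300ld and Cd300e had 6, 1, 6 and 6 UMIs in the 891 NK-like cells. The summed neutrophil markers were at 12.7 to 39.8 CPM in NK-like cells, below the CD4 T-like libraries in each of the 3, and Ly6g had no UMI. In replicate 1 the NK-like sum of 39.8 CPM stood above the B-like one of 37.6 CPM. The calls limit all these sums, because they used the same markers. The part of stray neutrophil RNA in the Cd300lf level of NK-like cells was not tested.

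The members met in the same cells. At 2000 UMIs per cell, Ly6c-low-like monocytes showed 3.02 ± 0.11 and neutrophil-like cells 3.24 ± 0.08 of the 6 members on average, against 1.502 ± 0.088 in Ly6c-high-like monocytes and 0.97 ± 0.24 in dendritic-like cells. At least 2 members were seen in 96.1% of the Ly6c-low-like and 96.3% of the neutrophil-like cells at that depth, and in 48.0% of the Ly6c-high-like ones. Before thinning, an inhibitory and an activating receptor were often seen together. Cd300a and Cd300ld were seen in 608 of 637 Ly6c-low-like monocytes, and Cd300lf and Cd300ld in 1999 of 2654 neutrophil-like cells. Cd300a and Cd300lb were seen in 463 of 547 Ly6c-high-like monocytes. Of the Ly6c-low-like monocytes 629 had a Cd300a UMI and 615 a Cd300ld UMI, so a high count with both follows from the single shares. The activating pair Cd300e and Cd300ld was seen in 551 of the 637 Ly6c-low-like monocytes. In neutrophil-like cells Cd300ld was seen in 91.7% of cells with Cd300lf and in 88.8% of cells without it, and deeper cells show more of every gene.

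The other 3 Cd300 genes in the matrices divided the same classes. Cd300lg, best known from the endothelium as a receptor that binds lymphocytes, was at 163, 119 and 150 CPM in Ly6c-high-like and at 16.3, 11.4 and 19.5 CPM in Ly6c-low-like monocytes, and was lower in the latter with a log2 fold of -3.22 and an SE of 0.21 (edgeR adjusted p = 3.44e-21). Dendritic-like cells had 195 ± 12.0 CPM, all of it in cells called conventional, where 37 of 47 had a UMI, while the 4 plasmacytoid cells had none. The 2654 neutrophil-like cells held 1 Cd300lg UMI. In the cluster-based fit Cd300lg did not differ past the threshold between dendritic-like cells and Ly6c-high-like monocytes (log2 fold 0.15, SE 0.17, edgeR adjusted p = 0.581).

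Cd300c2, an activating receptor, was at 569, 516 and 452 CPM in Ly6c-low-like monocytes and at 156, 140 and 145 CPM in Ly6c-high-like ones, higher by 1.84 on the log2 scale with an SE of 0.11 (edgeR adjusted p = 2.61e-23). Against neutrophil-like cells it was lower in Ly6c-high-like monocytes (-1.67, SE 0.11), and in Ly6c-low-like monocytes it was not called with TMM (0.17, edgeR adjusted p = 0.129) but was with plain totals (1.14, edgeR adjusted p = 1.07e-20). Cd300ld2 had 220 UMIs in Ly6c-low-like and 11 in Ly6c-high-like monocytes, higher by 4.96 on the log2 scale with an SE of 0.38 (edgeR adjusted p = 1.1e-17), with levels of 69.2, 104.98 and 47.6 CPM in the former. Whether its sequence overlap with other Cd300 genes bears on these counts was not tested.

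**Figure D5:**
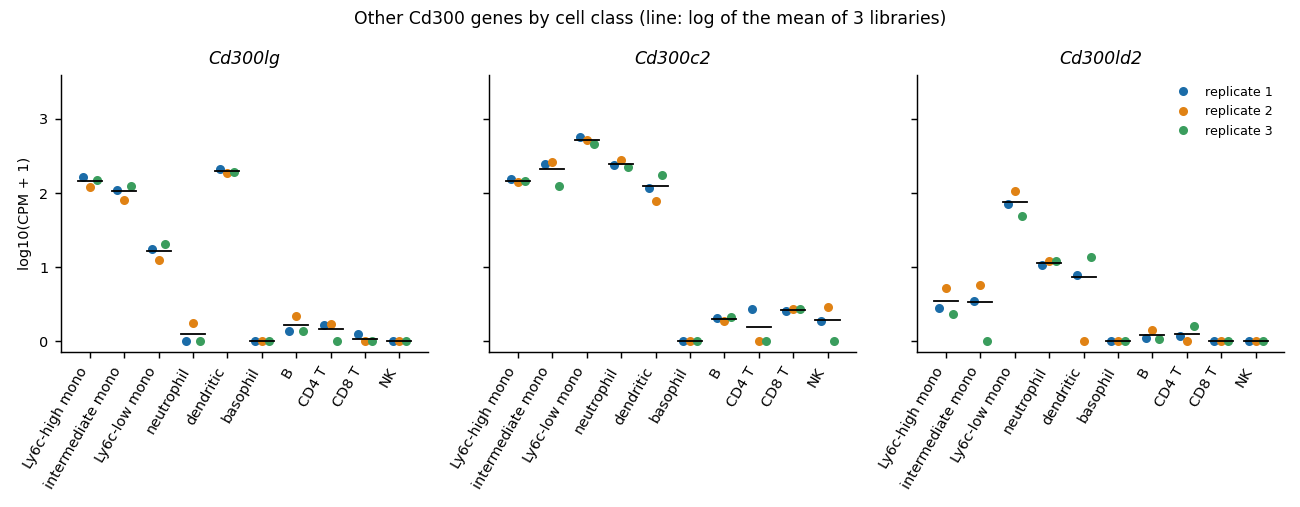
Level of Cd300lg, Cd300c2 and Cd300ld2 in 10 cell classes as log10(CPM + 1), with 1 point per library and a line at the log of the mean of the 3. Cd300lg is highest in dendritic cells and Ly6c-high monocytes and has 1 UMI in all neutrophils, while Cd300c2 and Cd300ld2 are highest in Ly6c-low monocytes.

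Genes of the signalling path were taken from 5 lists, of which 42 of 45 genes have a row in the matrices. The inhibitory receptors act through phosphatases, and all 3 listed were higher in Ly6c-low-like than in Ly6c-high-like monocytes: Ptpn11 by 1.31 (SE 0.14), Ptpn6 by 0.62 (SE 0.09) and Inpp5d, a lipid phosphatase, by 0.37 (SE 0.10) on the log2 scale. Their median was 0.62 beside -0.01 over all genes, of which 15.7% were called higher and 18.8% lower. Of the 3 adaptors, Fcer1g was higher, by 0.46 (SE 0.15, edgeR adjusted p = 0.0115), while Tyrobp (-0.14, SE 0.16) and Hcst (0.14, SE 0.17) were not called. The Fcer1g call was lost with doublets kept (edgeR adjusted p = 0.0798) and without replicate 2 (0.0708) or replicate 3 (0.0679), and that of Inpp5d with cluster-based classes (0.0589). TMM-scaled levels of Tyrobp were 4386 ± 190 CPM in Ly6c-low-like and 4820 ± 216 in Ly6c-high-like monocytes. Among 12 kinases and downstream molecules, 3 were higher and 1 lower, a share near the 34.4% of all genes called in either direction: the Src-family kinases Fyn (3.68, SE 0.16) and Fgr (1.06, SE 0.10) were among the former, and Pik3cd, a phosphoinositide kinase, was lower (-0.58, SE 0.09). The 3 listed partners of Cd300lf in other pathways, Il4ra, Myd88 and Ticam1, were not called.

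Other paired receptors of myeloid cells split between the monocyte types, with 8 of 21 higher in Ly6c-low-like monocytes, 11 lower and a median of -0.31, beside 15.7% of all genes higher and 18.8% lower. Lilra5, an activating leukocyte immunoglobulin-like receptor, had 736 UMIs against 7 (log2 fold 7.28, SE 0.36), and Trem1, an activating receptor that signals through Tyrobp, had 155 against 4 (5.75, SE 0.42). The Siglec Cd33 was lower, at 20 against 567 UMIs (-4.25, SE 0.27), and so was Cd200r1, an inhibitory receptor for CD200, at 4 against 92 (-3.89, SE 0.50).

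Against neutrophil-like cells most of these genes were lower in both monocyte types with TMM. In Ly6c-high-like monocytes 37.4% of all genes were called higher, 36.1% lower and 73.5% in either direction. In Ly6c-low-like monocytes these shares were 35.7%, 34.7% and 70.4%. In Ly6c-high-like monocytes all 3 adaptors were lower, Hcst by a log2 fold of -3.08 (SE 0.12), Tyrobp by -1.83 (SE 0.17) and Fcer1g by -0.51 (SE 0.15). Of the phosphatases, Ptpn6 (-1.24, SE 0.09) and Inpp5d (-0.76, SE 0.09) were lower and Ptpn11 was not called. In Ly6c-low-like monocytes Hcst (-2.94, SE 0.13), Tyrobp (-1.96, SE 0.17), Ptpn6 (-0.62, SE 0.09) and Inpp5d (-0.39, SE 0.10) were lower, Ptpn11 was higher (1.29, SE 0.15) and Fcer1g was not called (-0.05, edgeR adjusted p = 0.801). With plain totals Hcst and Tyrobp stayed lower in both, but Fcer1g was higher (0.43 in Ly6c-high-like and 0.88 in Ly6c-low-like monocytes), as were Inpp5d (0.19 and 0.54), Ptpn11 in Ly6c-high-like monocytes (0.94, edgeR adjusted p = 1.16e-08) and, in Ly6c-low-like monocytes, Ptpn6 (0.30).

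Among the 12 kinases and downstream molecules, 1 was higher and 10 were lower in Ly6c-high-like monocytes than in neutrophil-like cells with TMM. In that fit 73.5% of all genes were called, 37.4% higher and 36.1% lower. With plain totals 5 were higher and 5 lower, beside 6439 higher and 1709 lower of all 10346 genes. In Ly6c-low-like monocytes 1 was higher and 8 were lower with TMM, beside 35.7% of all genes higher and 34.7% lower. With plain totals the counts there were 5 and 4, beside 6208 higher and 1602 lower of all 10346 genes. Fyn was the 1 called higher with TMM in both monocyte types, with 117 and 1010 UMIs against 10. Of the 21 paired receptors, 1 was higher and 17 were lower in Ly6c-high-like monocytes (5 and 12 with plain totals). In Ly6c-low-like monocytes the counts were 3 and 18 (4 and 12 with plain totals), and the figures over all genes are those just given. Trem1 had 4 UMIs in Ly6c-high-like monocytes against 1321 in neutrophil-like cells, and Cd33 had 20 in Ly6c-low-like monocytes against 9803. Lair1, an inhibitory collagen receptor, was higher in Ly6c-low-like monocytes under both scalings (2.11, SE 0.11, and 3.04). Il4ra (-2.35, SE 0.11) and Myd88 (-1.91, SE 0.09) were lower and Ticam1 (1.23, SE 0.26) was higher in Ly6c-high-like monocytes, and the directions were the same in Ly6c-low-like monocytes and with plain totals.

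In dendritic-like cells against Ly6c-high-like monocytes all 3 adaptors were lower, Fcer1g by a log2 fold of -1.15 (SE 0.15), Hcst by -1.05 (SE 0.28) and Tyrobp by -0.99 (SE 0.16). None of the 3 phosphatases was called, while with plain totals, where the median of all genes was 0.24, 2 of them were higher and the calls over all genes were 2698 higher and 1210 lower. Among the paired receptors 1 was higher and 17 of 21 were lower, beside 15.9% of all genes higher and 17.2% lower. Cd200r1 was the higher one, with 124 against 95 UMIs (2.83, SE 0.21), and Trem3, an activating relative of Trem1, was lower, with 1 UMI against 278. Of the 12 kinases, 2 were higher and 7 lower, with Fyn (2.17, SE 0.23) and Pik3r1 (0.86, SE 0.14) among the former and Fgr (-2.32, SE 0.15) among the latter.

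The genes most like each member were named by Pearson's correlation of log2(CPM + 1) over 27 sums, of 9 classes in 3 libraries, among 10266 genes. The points share libraries and depth, so these values describe likeness and carry no test. Cd300a was most like Tlr13, a sensor of bacterial RNA (r = 0.99), Fut4 (0.98) and Sirpb1a (0.98). Cd300e was most like Il31ra, a subunit of the interleukin 31 receptor (0.93), Ccdc192 (0.93) and Lilra5 (0.92). Il31ra was at 63.3 ± 14.4 CPM in Ly6c-low-like and 2.13 ± 0.71 in Ly6c-high-like monocytes. Cd300ld was most like Pilrb2 (0.98), Trem3 (0.97) and Pilra (0.97), 3 paired receptors. Pilra, an inhibitory receptor, was at 426 ± 35.0 CPM in Ly6c-low-like, 75.5 ± 12.7 in Ly6c-high-like monocytes and 667 ± 50.3 in neutrophil-like cells. Cd300lb was most like Pi16 (0.99), Il13ra1 (0.99) and Lrrc25 (0.98). Cd300lf was most like Entpd1, an ectonucleotidase (0.93), Hk3, a hexokinase (0.92), and Padi4, the enzyme that citrullinates histones in neutrophils (0.92). Means of these 3 in NK-like cells stood above those in CD4 T-like cells, with Entpd1 at 149 ± 37.0 against 9.00 ± 3.28 CPM and Padi4 at 39.2 ± 3.47 against 3.92 ± 3.96 CPM.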

How the data were processed

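Raw UMI counts per gene and cell were deposited by the authors, made with Cell Ranger 7.1.0 per the file headers, and no source used here names the genome build or the probes. The members and all gene lists were chosen with earlier results of these data known. Barcodes under 200 genes and Scrublet doublets were removed, cells were called by their marker genes, and counts were summed per class and library. Classes with at least 10 cells in every library were fitted together in edgeR 4.0.16 (filterByExpr, TMM, robust quasi-likelihood test, library as block), at an adjusted p threshold of 0.05. All classes come from the same libraries, which pairs them. The dendritic comparison used Leiden clusters (scanpy 1.11.5), which differs from the planned calls. Thinning drew 2000 UMIs per cell without replacement. Intervals are exact (95%), and the limit for a count of 0 is 3 counts. Alternatives were DESeq2 1.42.0, plain totals, no filter, no block, doublets kept, other calls, only the compared classes and left-out libraries. The fit was tested on simulated data. No pair of libraries matched within sampling noise in gene totals over all cells (chi-square per degree of freedom 50.7 or more). The libraries differ in cell make-up, which by itself raises this value, so it does not compare them within a class. In each partner list the 2 highest and 2 lowest log2 folds among called genes of one direction in 3 libraries and at least 10 CPM could be named, and all adaptors and phosphatases. Clm8, Lilrb3, Lilrb4b, Cd300ld3, Cd300ld4, Cd300ld5 and Cd300lh were not analysed here.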

Additional observations from a re-analysis of the deposited data

How the results depend on the processing

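Between the monocyte types Cd300ld and Cd300e were called higher under every alternative run. The number of members called higher there, 3, became 2 with doublets kept and 4 with only the 2 classes compared, where Cd300lf passed (edgeR adjusted p = 0.0461). Leaving out 1 library gave 967 to 1401 genes higher and 1044 to 1742 lower, with the lowest counts without replicate 1. With cluster-based classes Cd300lb was at -0.0037.

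In the fit with no replicate block, which ignores the pairing of classes by library, Cd300e in Ly6c-high-like monocytes against neutrophil-like cells was no longer called (edgeR adjusted p = 0.0539), and Cd300c2 between B-like and CD4 T-like cells was at -0.0071. No other named gene changed its call or direction without the block.

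Against neutrophil-like cells the scaling mattered most. With plain totals Ly6c-high-like monocytes had 6439 genes higher and 1709 lower with 3 members lower, and log2 folds were 0.43 for Fcer1g, 0.19 for Inpp5d and 0.94 for Ptpn11. Ly6c-low-like monocytes had 6208 higher and 1602 lower with 2 members higher and 2 lower, and folds were 0.47 for Cd300a, 0.88 for Fcer1g, 0.54 for Inpp5d and 0.30 for Ptpn6. DESeq2 gave 4735 genes higher and 2714 lower in the former and 4615 and 2560 in the latter. The fold of Ptpn11 in Ly6c-high-like monocytes, -0.02 and not called, was 0.36 with DESeq2, 0.047 with stricter and 0.0093 with looser calls, 0.066 with clusters, 0.048 with only the 2 classes, and -0.082 to 0.12 with a library left out. For Fcer1g in Ly6c-low-like monocytes it was 0.32 with DESeq2, 0.0044 with only the 2 classes and -0.061 to 0.072 with a library left out. Cd300e in Ly6c-high-like monocytes was at 1.61 with clusters, where 1 member was called higher, and ran from -5.88 to 3.36 with a library left out.

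For dendritic-like cells, plain totals gave 2698 genes higher and 1210 lower and a Ptpn6 fold of 0.055, and DESeq2 gave 2320 and 1357 with 0 members higher. Leaving out a library gave 641 to 1437 genes higher and 940 to 1671 lower, lowest without replicate 1. Doublets kept, stricter and looser calls could not be run there, since marker calls left under 10 cells in replicate 2. With a minimum of 8 cells, chosen after seeing the data, marker calls gave 1170 genes higher and 1458 lower, and Cd300lf was not called (edgeR adjusted p = 0.357). With a library left out Inpp5d ran from -0.057 to 0.14 and Cd300ld2 from -0.27 to 0.85.

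Between B-like and CD4 T-like cells plain totals gave 2277 genes higher and 3742 lower. The 2 members called higher became 1 with DESeq2, plain totals, no filter, stricter calls or only the 2 classes, 0 with doublets kept, 4 with clusters, and 1 to 2 with a library left out. With doublets kept Cd300a was at -0.28 and Cd300lb at -0.22. Cd300c2 was at -0.073 with plain totals, -0.45 with stricter calls and -0.36 to 4.11 with a library left out. Cd300e was at 0.80 with looser calls, 0.31 with clusters and -0.30 to 0.20 with a library left out. Cd300ld was at 0.75 with clusters and -0.35 to 0.16 with a library left out. Cd300ld2 was at 0.36 with stricter calls, 1.09 with clusters and -1.07 to 0.65 with a library left out, and Cd300lg ran from -0.31 to 1.09. The cause of these changes was not tested. Libraries of 8 and 10 dendritic-like cells limit every value of that class.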
